A study of Mus musculus with 53 samples.

Results

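The 10 genes described here encode the transcription factor NRF2 (Nfe2l2) and 9 enzymes and transporters of antioxidant and glutathione metabolism: Gclc, Gclm, Slc7a11, Gsr, Txnrd1, Srxn1, Prdx1, Nqo1 and Cat. They were taken by gene symbol from per-sample tables that list 23847 loci. All 10 were present, and all 10 were among the 11146 loci that reached 1 FPKM (a read level divided by transcript length and by sequencing depth) in at least 1 sample and were tested. The other 9 genes reached that level in all 53 samples and Slc7a11 in 15, namely the 7 WT libraries at 24 h and 8 libraries of Stat6-/- replicate 1.

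RNA-seq was performed on bone marrow-derived macrophages (BMDMs) of C57BL/6 mice aged 8 to 12 weeks, differentiated for 6 days with L929 cell supernatant. WT cells and cells of mice lacking Stat6 in the whole body were compared, STAT6 being the transcription factor that carries the IL-4 signal to the nucleus. Cells received IL-4 at 20 ng/ml for 1, 3, 6 or 24 h or were kept as time-matched controls, and a further control was taken at 0 h. The 53 samples fell into 18 groups of genotype, treatment and time, with 4 samples in each WT group, 3 in WT with 24 h of IL-4 (its replicate 1 is not analysed here) and 2 in each Stat6-/- group.

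NRF2 is held at a low level by KEAP1, which hands it to an E3 ubiquitin ligase. Oxidants and electrophiles modify KEAP1, and NRF2 then accumulates, pairs with a small MAF protein and binds the antioxidant response element, a site that BACH1 occupies as a repressor. Its targets supply cystine for glutathione (Slc7a11), build glutathione (Gclc and Gclm), return it to its reduced form (Gsr) and serve the thioredoxin and peroxiredoxin system (Txnrd1, Srxn1 and Prdx1), and Nqo1 is its textbook target. Macrophages need this system because they make superoxide and hydrogen peroxide themselves.

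Summed over all loci, a sample held 385889 to 464915 FPKM, and relative sequencing depth, recovered from low loci, ranged from 0.706 to 1.56 times the median sample. Stat6 itself lay between 58.7 and 90.6 FPKM in the 35 WT samples and between 14.3 and 24.0 FPKM in the 18 Stat6-/- samples, so the genotype labels held although a part of the transcript was still read. All 8 macrophage markers checked reached 1 FPKM, but Lyz2 was listed at 0 in some WT libraries, so a listed 0 can be a failed estimate. None of the 10 genes was at 0 in any library. Exons of 9 of the 10 genes shared no base with another annotated gene. Gclm shared 4.71% of its exon bases with the opposite-strand transcript Gm17494 and 3.88% with the pseudogene Gm6061, and the library preparation was not stated to keep strand.

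Because these genes share a regulator that acts through a short DNA site, the start regions in which that site could be read are shown for those that hold it. RefSeq promoter windows on GRCm38.p6, from 250 bases before to 50 bases after the transcript start, were at hand for 8 of the 10 genes (10 windows, 3 of them for Txnrd1, and none for Gclc and Gsr). The core of the antioxidant response element, TGACNNNGC on either strand, was found in 5 of these 10 windows (5 of the 8 genes) and in 12.4% of all 32851 windows. The capitals below mark the match, and each stretch is written 5′ to 3′ on the gene's strand.
Nfe2l2 (chr2:75704845-75704913, minus strand): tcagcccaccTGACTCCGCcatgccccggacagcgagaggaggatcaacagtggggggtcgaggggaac
Gclm (chr3:122245373-122245481, plus strand): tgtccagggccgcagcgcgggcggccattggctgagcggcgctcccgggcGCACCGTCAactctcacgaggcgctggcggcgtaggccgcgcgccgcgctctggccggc
Prdx1 (chr4:116685416-116685524, plus strand): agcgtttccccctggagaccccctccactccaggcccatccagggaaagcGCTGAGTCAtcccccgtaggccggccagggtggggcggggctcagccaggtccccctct
Txnrd1 (chr10:82859064-82859172, plus strand): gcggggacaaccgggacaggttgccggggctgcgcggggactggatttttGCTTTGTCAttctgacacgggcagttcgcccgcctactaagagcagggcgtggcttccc
Srxn1 (chr2:152105542-152105570, plus strand): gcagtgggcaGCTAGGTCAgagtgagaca
The match began 240 bases before the start of Nfe2l2, 134 before that of Gclm, 133 before that of Prdx1 and 92 before the middle one of 3 alternative Txnrd1 starts, which lies inside the locus, and at base 29 of the Srxn1 transcript. In Prdx1 the match overlapped a second motif, the AP-1 site TGANTCA, which 7.81% of all windows hold. Prdx1 held a further AP-1 site from base -237, and Srxn1 held AP-1 sites from bases -102 and -45, apart from its match. The element that STAT6 is known to bind, TTCNNNNGAA, was in none of the 10 windows and in 6.95% of all windows. The version with a spacer of 3 bases, TTCNNNGAA, was in 3 of the 10 windows, those being of Slc7a11 and Txnrd1, and in 8.30% of all windows. These matches describe letters within 300 bases only and were not tested against the expression values.

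In WT macrophages before treatment, the levels of the 10 genes spanned a wide range on the FPKM scale, which is per transcript length. Prdx1, which reduces hydrogen peroxide through thioredoxin, was highest at 303 FPKM (mean of 4 samples). Catalase (Cat, 178 FPKM) and Nfe2l2 (122 FPKM) followed, with overlapping ranges. Txnrd1 (48.4 FPKM), Srxn1 (47.6 FPKM) and Gclm (34.0 FPKM) came next, and neighbours in that order overlapped. Gsr (20.4 FPKM) lay apart on both sides, Gclc (8.58 FPKM) and Nqo1 (6.66 FPKM) overlapped, and the cystine transporter Slc7a11 was lowest at 0.526 FPKM.

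Libraries differed in these genes by replicate number, above all in Stat6-/- cells. In each of the 9 Stat6-/- groups, replicate 1 was higher than replicate 2 for all 10 genes, an order that 18.7% of tested loci showed. Nqo1, the quinone reductase, was between 9.64 and 31.8 FPKM in the 9 libraries of replicate 1 and between 1.03 and 2.08 FPKM in the 9 of replicate 2, a ratio of 6.40 to 21.4 within a group. Gclm, the modifier subunit of glutamate-cysteine ligase, was 4.82 to 9.49 times as high in replicate 1, and Cat, which breaks down hydrogen peroxide, 4.07 to 7.24 times. For 8 of the 10 genes replicate 1 exceeded replicate 2 by at least 1 on the log2(FPKM + 1) scale in every group, as did 67 of the 11146 loci (0.601%). The exceptions were Slc7a11, whose low level compresses this scale, and Nfe2l2, with ratios of only 1.04 to 1.44.

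The WT controls fell between these replicates. At each of the 5 control times, the Stat6-/- replicate 1 library was above every WT control and the replicate 2 library below every WT control for 9 genes, all but Nfe2l2, which 0.924% of tested loci also showed at all 5 times. At 0 h, for example, Gclm was at 78.0 and 16.2 FPKM in the Stat6-/- replicates and at 25.5, 25.4, 39.9 and 44.96 FPKM in the WT samples. Cat was at 337 and 82.9 FPKM against 122, 132, 221 and 239 FPKM. Among other genes of the redox list described further on, Gsta3, Gstm1, Mgst1, Hmox1, Ephx1, Cbr3, Akr1b8 and Taldo1 were likewise higher in replicate 1 by at least 1 on the log2 scale in all 9 groups, 8 of 77 tested. In the opposite direction 136 loci (1.22%) were higher in replicate 2, with none of the 10 genes among them. The chemokine genes Ccl5 and Ccl7 were the most extreme of these, with median log2 differences of -5.39 and -4.97.

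**Figure D1:**
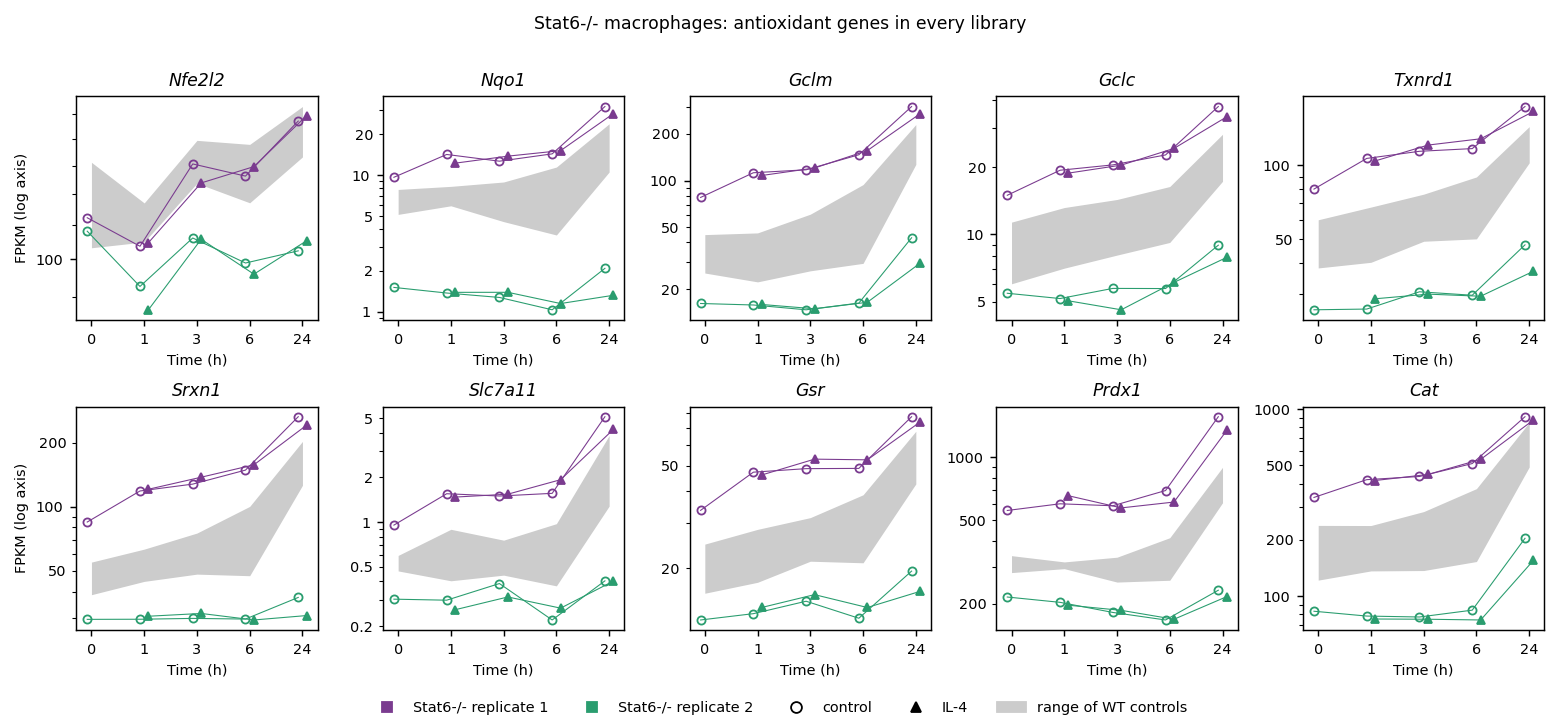
FPKM (log axis) of the 10 genes in every Stat6-/- library against time in hours. Purple and green mark replicates 1 and 2, open circles controls, filled triangles IL-4, and the grey band the lowest to highest WT control, and apart from Nfe2l2 replicate 1 lies above and replicate 2 below the band at each control time.

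The Stat6-/- replicates also differed in other respects. The summed level of 7 neutrophil markers was 584 to 1002 FPKM in Stat6-/- replicate 1, 539 to 709 FPKM in replicate 2 and 203 to 570 FPKM in WT. The summed level of 8 macrophage markers was 18582 to 23637 FPKM in replicate 1, 14398 to 17758 FPKM in replicate 2 and 3460 to 30812 FPKM in WT, where Lyz2 carries most of it and is listed at 0 in some libraries. Lyz2 also set the order of the Stat6-/- replicates in this sum (15047 to 19682 against 10146 to 12866 FPKM). Of the other macrophage markers, Fcgr1, Cd14 and Itgam were higher in replicate 2 without overlap. Csf1r (941 to 1081 against 696 to 968 FPKM), Emr1, Cd68 and Mertk overlapped between the replicates. Fcgr1 was at 54.0 to 146 FPKM in replicate 1 and 223 to 553 FPKM in replicate 2, Cd14 at 117 to 316 and 419 to 643 FPKM, and Itgam at 231 to 282 and 321 to 599.9 FPKM. The relative depth was 0.706 to 1.27 and 0.821 to 1.504 in replicates 1 and 2. No T and NK, fibroblast or erythroid marker reached 1 FPKM, and of 4 markers each for dendritic cells, B cells and mast cells 1, 1 and 2 did. The part of these differences in the levels of the 10 genes was not tested, and in bulk RNA fewer cells of a type cannot be told apart from less RNA per cell.

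In WT samples, the libraries numbered 3 and 4 were both above those numbered 1 and 2 in at least 6 of the 8 groups of 4 for 8 of the 10 genes, all but Slc7a11 and Prdx1, against 11.4% of tested loci. Replicate 4 was highest in at least 7 of 9 WT groups for 8 genes, against 7.15% of loci. The labels do not say that a number is one animal, but the study describes fold changes of individual animals. Each IL-4 sample was therefore also set against the control with its own number. A second fit with the replicate number as a block is given beside the first for the counts and for many single changes.

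IL-4 lowered the mRNA of Nfe2l2 itself (chromosome 2, 75675519 to 75704641 on mm10, the build of all gene positions here) within 1 h. In WT controls at 1 h it stood at 105, 105, 117 and 113 FPKM, and with IL-4 at 55.0, 52.96, 54.4 and 57.8 FPKM. The mean fell from 110.1 ± 5.90 to 55.0 ± 2.05 FPKM (SD, n = 4 each), and the groups did not overlap. On the log2(FPKM + 1) scale, on which all changes here are given, Nfe2l2 fell by 0.99 ± 0.10 (SE) at 1 h (limma, adjusted p = 1.85e-09). At 3 h the IL-4 samples were at 62.8, 58.3, 68.5 and 66.0 FPKM against 132, 124, 139.5 and 134 FPKM, a fall of 1.04 ± 0.10 (limma, adjusted p = 1.61e-10). Every 3 h IL-4 library was thus at 0.472 to 0.493 times the control of its own number.

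The fall was smaller at later times. At 6 h Nfe2l2 was at 99.3, 97.8, 108 and 115 FPKM with IL-4 and at 127, 117, 138 and 132 FPKM without, which still did not overlap. The change was -0.29 ± 0.10 (limma, adjusted p = 0.0254), which no longer passed without any one of the 4 WT replicates (limma, adjusted p from 0.0697 to 0.131), and the response at 6 h differed from that at 3 h by 0.75 ± 0.15 (limma, adjusted p = 0.0012). At 24 h the 3 IL-4 samples, at 123, 129 and 129 FPKM, lay below the controls at 136, 133, 153 and 147 FPKM. That change of -0.16 ± 0.11 missed the threshold without the block (limma, adjusted p = 0.22) and passed it with the block (-0.18 ± 0.061, limma, adjusted p = 0.00849).

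**Figure D2:**
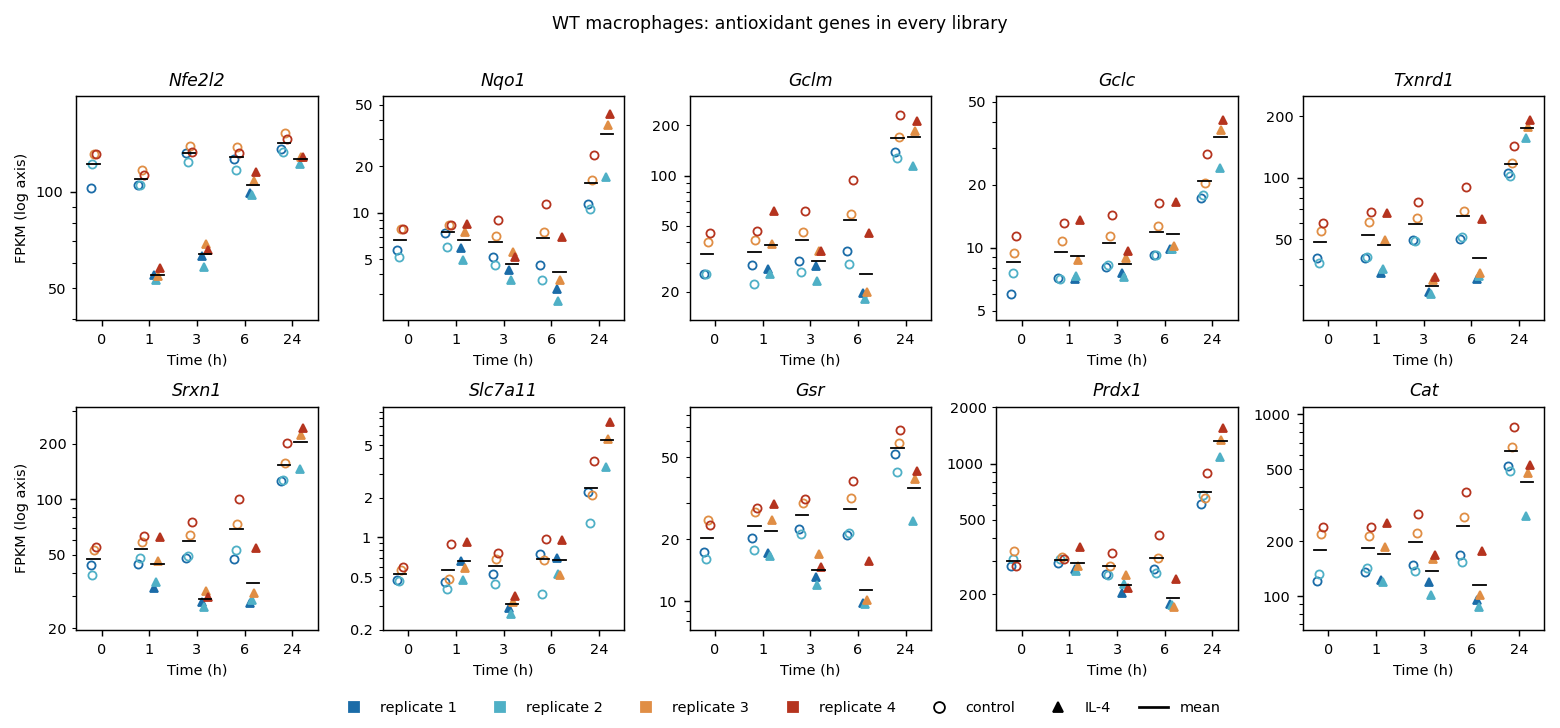
FPKM (log axis) of the 10 genes in every WT library against time in hours, open circles for controls, filled triangles for IL-4, colours for replicate numbers and black bars for group means. Nfe2l2 with IL-4 lies below all controls at each time, whereas Prdx1 and Txnrd1 with IL-4 lie below their controls at 3 h and above them at 24 h.

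Glutathione synthesis starts with glutamate-cysteine ligase, made of the catalytic subunit Gclc (chromosome 9, 77754535 to 77794489) and the modifier Gclm (chromosome 3, 122245557 to 122267215). Gclm at 6 h was at 19.8, 18.1, 20.0 and 44.9 FPKM with IL-4 and at 35.3, 29.4, 58.4 and 94.4 FPKM in controls. Replicate 4 was the highest on both sides, so the groups overlapped, but each IL-4 sample was at 0.343 to 0.616 times its own control. The change of -1.01 ± 0.76 did not pass without the block (limma, adjusted p = 0.306) and did with it (SE 0.14, limma, adjusted p = 9.03e-08). At 24 h Gclm was at 113, 185 and 212 FPKM with IL-4 and at 139, 127, 171 and 230.0 FPKM in controls, with pairs on both sides of 1 (0.891 to 1.08).

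The catalytic subunit moved differently at the late times. Gclc at 6 h was at 9.92, 9.89, 10.2 and 16.6 FPKM with IL-4 and at 9.22, 9.21, 12.7 and 16.4 FPKM in controls, a change of -0.02 (limma, adjusted p = 0.981 without and 0.859 with the block). At 24 h it was at 24.2, 36.8 and 40.9 FPKM with IL-4 against 17.3, 17.9, 20.4 and 28.01 FPKM, with overlap. The ratio to the own control was 1.35 to 1.81, and the difference of 0.58 ± 0.093 in the blocked fit (limma, adjusted p = 1.68e-06) did not pass without the block (limma, adjusted p = 0.28).

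Slc7a11 (chromosome 3, 50364936 to 50443613), which imports cystine in exchange for glutamate, was the gene whose late rise passed in both fits. It was at 3.43, 5.57 and 7.56 FPKM after 24 h of IL-4 and at 2.21, 1.28, 2.11 and 3.83 FPKM in the 24 h controls. All pairs were 1.97 to 2.68 times their control, although the lowest IL-4 sample lay below the highest control. The rise was 0.96 ± 0.37 (limma, adjusted p = 0.0282), and 0.95 ± 0.16 with the block (limma, adjusted p = 5.61e-06). It did not pass without any one of the 4 WT replicates (limma, adjusted p from 0.0772 to 0.155) or with a pseudocount of 0.1 (limma, adjusted p = 0.125). At 3 h Slc7a11 was at 0.290, 0.264, 0.326 and 0.362 FPKM with IL-4 and at 0.525, 0.440, 0.690 and 0.757 FPKM without. These did not overlap, but the level was below 1 FPKM, where this scale understates a change, and the difference passed in neither fit (limma, adjusted p = 0.616 and 0.133 with the block).

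Gsr, glutathione reductase (chromosome 8, 33653238 to 33698162), was lower with IL-4 at 3, 6 and 24 h. At 3 h it was at 13.1, 12.0, 16.9 and 14.7 FPKM against 22.4, 21.3, 29.9 and 31.5 FPKM in controls. At 6 h it was at 9.77, 9.65, 10.1 and 15.6 FPKM against 21.0, 21.4, 31.8 and 38.6 FPKM. The groups did not overlap at either time, and the 6 h fall of 1.23 ± 0.47 passed in both fits (limma, adjusted p = 0.0346, and 1.04e-13 with the block). Leaving out any one of the 4 WT replicates ended the call without the block (limma, adjusted p from 0.103 to 0.181). The 3 h fall of 0.84 passed only with the block (limma, adjusted p = 2.07e-09, and 0.205 without). At 24 h Gsr was at 24.5, 39.3 and 42.8 FPKM against 51.7, 42.5, 58.7 and 67.9 FPKM, with overlap. Each IL-4 sample was at 0.577 to 0.669 times its control. That difference of -0.70 ± 0.10 in the blocked fit (limma, adjusted p = 2.38e-07) did not pass without the block (limma, adjusted p = 0.294).

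Among the thioredoxin and peroxiredoxin genes, Txnrd1 fell at 3 h and rose at 24 h in the blocked fit only. Txnrd1, cytosolic thioredoxin reductase (chromosome 10, 82833951 to 82897724), was at 27.6, 26.8, 31.7 and 32.5 FPKM after 3 h of IL-4 and at 49.3, 49.1, 63.3 and 76.3 FPKM in controls. After 24 h it was at 157, 177 and 193 FPKM against 106, 102, 118 and 144 FPKM. The groups were apart both times, in opposite directions. The blocked fit gave -0.96 ± 0.094 at 3 h (limma, adjusted p = 1.00e-10) and 0.50 ± 0.10 at 24 h (limma, adjusted p = 6.94e-05), and the fit without the block called neither (limma, adjusted p = 0.172 and 0.38). Between these times, at 6 h, Txnrd1 was at 31.9, 33.0, 34.0 and 62.5 FPKM against 50.2, 51.2, 69.0 and 89.7 FPKM, and replicate 4 made the groups overlap.

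Srxn1, sulfiredoxin (chromosome 2, 152105524 to 152111376), which restores over-oxidized peroxiredoxins, was at 27.7, 26.0, 31.8 and 29.5 FPKM at 3 h of IL-4 against 48.3, 49.1, 64.2 and 75.3 FPKM. The blocked change was -0.9965 ± 0.14 (limma, adjusted p = 3.16e-07, and 0.227 without the block). At 6 h it was at 27.3, 28.5, 30.8 and 54.3 FPKM against 47.5, 52.96, 73.6 and 100.4 FPKM, and each IL-4 sample was at 0.419 to 0.574 times its own control. At 24 h it was at 146, 223 and 245 FPKM against 126, 127, 158 and 203 FPKM, and the groups overlapped as they did at 6 h. All 3 pairs were higher, by 1.15 to 1.41 times, but neither fit called it (limma, adjusted p = 0.61, and 0.0661 with the block).

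Prdx1, its substrate (chromosome 4, 116685599 to 116700000), was at 203, 228, 254 and 217 FPKM after 3 h of IL-4 against 255, 254, 284 and 334 FPKM, and at 178, 175, 172 and 241 FPKM after 6 h against 274, 259, 311 and 413 FPKM. At 24 h the order was the reverse, at 1083, 1344 and 1553 FPKM with IL-4 and 606, 679, 654 and 895 FPKM in controls. The 3 h difference of -0.32 passed in neither fit (limma, adjusted p = 0.718, and 0.0792 with the block). None of these groups overlapped, although the highest IL-4 sample and the lowest control at 3 h were nearly equal. The 6 h and 24 h differences of -0.70 ± 0.15 and 0.86 ± 0.16 passed with the block (limma, adjusted p = 9.52e-05 and 1.40e-05) and not without it (limma, adjusted p = 0.267 and 0.151).

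Nqo1 (chromosome 8, 107388225 to 107403205) also changed sides. At 6 h it was at 3.22, 2.70, 3.66 and 6.94 FPKM with IL-4 and at 4.61, 3.64, 7.54 and 11.5 FPKM without. At 24 h it was at 16.97, 36.7 and 43.5 FPKM with IL-4 against 11.3, 10.5, 16.3 and 23.8 FPKM. The groups overlapped at both times. Ratios to the own control were 0.485 to 0.741 at 6 h and 1.61 to 2.26 at 24 h. Both passed with the block only (limma, adjusted p = 0.00375 and 3.03e-05, against 0.576 and 0.303 without).

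Catalase (chromosome 2, 103453904 to 103485153) was lower with IL-4 at 3, 6 and 24 h, as Gsr was. At 3 h each IL-4 sample was at 0.597 to 0.805 times its control. Cat was at 94.99, 86.5, 101 and 176 FPKM after 6 h of IL-4 against 168, 153, 271 and 376 FPKM, and at 275, 477 and 527 FPKM after 24 h against 521, 490.4, 661 and 849 FPKM. The groups overlapped at 6 h and at 24 h. Each IL-4 sample was at 0.373 to 0.565 times its control at 6 h and at 0.560 to 0.721 times at 24 h. Both differences, -1.04 ± 0.10 and -0.70 ± 0.11 in the blocked fit, passed there (limma, adjusted p = 8.07e-11 and 1.53e-06) and not without the block (limma, adjusted p = 0.217 and 0.505).

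Counted over the 10 genes, IL-4 lowered 1 at 1 h (Nfe2l2), 1 at 3 h (Nfe2l2) and 2 at 6 h (Nfe2l2 and Gsr) and raised 1 at 24 h (Slc7a11) in the fit without the block. Over all tested loci 3.72%, 12.5% and 19.2% fell at 1, 3 and 6 h, and 23.4% rose and 31.6% fell at 24 h. The counts at 3, 6 and 24 h are near or below the share of all loci. This fit estimates the spread over all 18 groups, which includes the distance between the Stat6-/- replicates in these genes. With the block, 1, 7 and 8 of the 10 fell at 1, 3 and 6 h, against 7.94%, 19.5% and 27.3% of loci. The 8 at 6 h were all but Gclc and Slc7a11. At 24 h with the block 5 rose (Nqo1, Gclc, Txnrd1, Slc7a11 and Prdx1, against 27.3% of loci) and 3 fell (Nfe2l2, Gsr and Cat, against 38.9%). Without any fit, all 10 genes were lower than their own control in all 4 pairs at 3 h, as were 29.6% of loci, and 8 of the 10 at 6 h, as were 35.4%. At 24 h, 6 were higher in all 3 pairs (33.8% of loci) and 3 lower (46.3%).

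The change of response between consecutive times was tested directly. From 1 h to 3 h none of the 10 differed without the block, and Txnrd1, Srxn1 and Gsr fell further with it (4.26% of loci without and 9.8% with the block). From 3 h to 6 h the Nfe2l2 response rose in both fits (1.73% and 5.69% of loci), while those of Gclm, Gsr and Cat fell further in the blocked fit (6.15%). From 6 h to 24 h no gene differed without the block (11% of loci rose), the nearest being Prdx1 at 1.61 ± 0.73 (limma, adjusted p = 0.0981). With the block the responses of 8 genes, all but Nfe2l2 and Cat, rose (17.1% of loci).

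**Figure D3:**
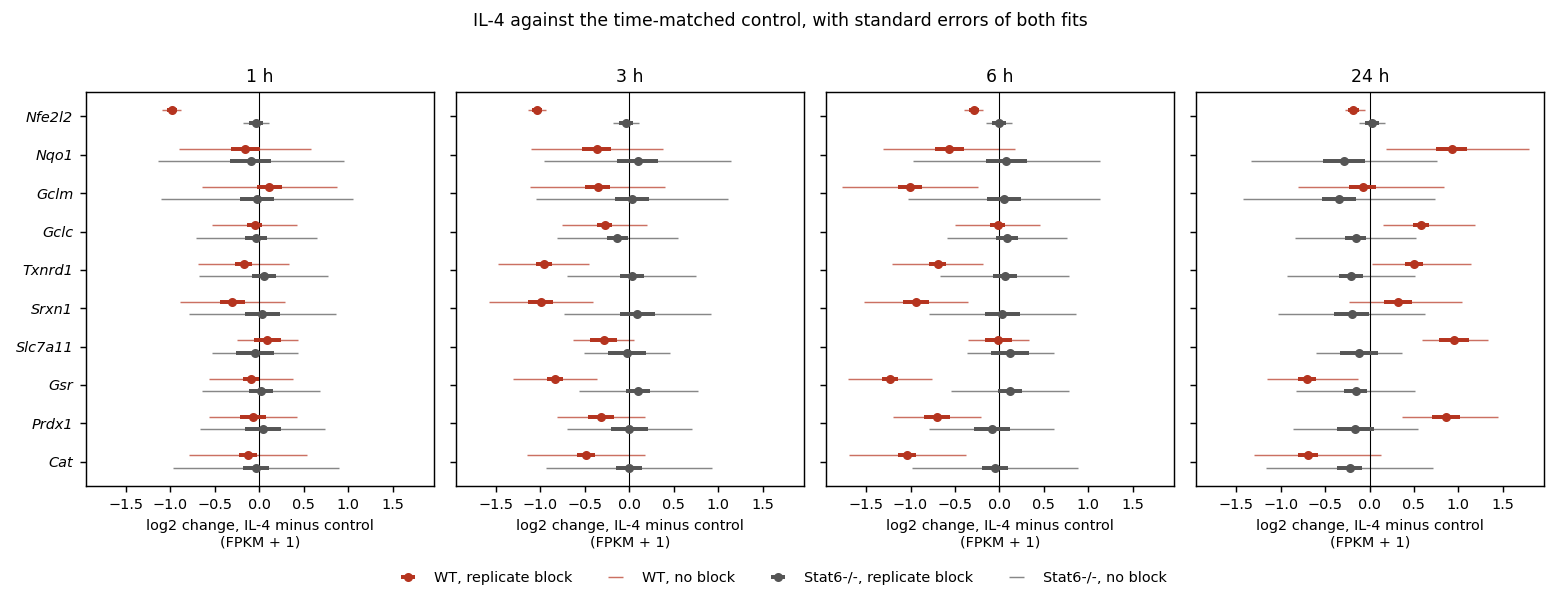
Change with IL-4 on the log2(FPKM + 1) scale for the 10 genes at 1, 3, 6 and 24 h. Red is WT and grey Stat6-/-, dots and thick bars are the replicate-block estimate ± SE, and thin bars are the estimate without the block ± SE, so at 24 h their centres differ slightly. WT values run to -1.23 at 6 h, and all Stat6-/- values lie between -0.34 and 0.12.

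In Stat6-/- macrophages no change with IL-4 in these genes was detected at any time. The changes were between -0.09 and 0.05 at 1 h, -0.13 and 0.10 at 3 h, -0.09 and 0.12 at 6 h, and -0.34 and 0.03 at 24 h. Limma called 0 of the 10 in each comparison, also at an unadjusted p under 0.05 and with the block. Over all loci it called 0% without the block at each of these times, and 0.0179%, 0.0359%, 0.0359% and 0.00897% with it. For Nfe2l2 the replicates were at 105 and 86.8 FPKM after 1 h of IL-4 and at 104 and 92.7 FPKM in controls, a change of -0.04 with a 95% interval of -0.34 to 0.26. With 2 samples a group and replicates this far apart the intervals of the other genes were wide without the block, up to -2.53 to 1.85 for Gclm at 24 h.

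In Stat6-/- cells at 24 h, 9 genes were lower with IL-4 in both pairs, as were 20.1% of loci. The median change of the 10 genes was -0.18, against 0.01 over all loci, and none passed. Gclm was at 269.9 and 29.4 FPKM with IL-4 and at 300.4 and 42.9 FPKM without, and Cat at 876 and 155 FPKM against 912 and 204 FPKM.

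The response of Nfe2l2 differed between the genotypes at 1 h by -0.95 ± 0.18 (limma, adjusted p = 0.000569) and at 3 h by -0.9995 ± 0.18 (limma, adjusted p = 9.14e-05). It was the one gene of the 10 called there without the block, against 1.15% and 4.22% of loci that fell, and no gene was called at 6 h or 24 h. With the block the counts were 1, 5 and 6 lower in WT at 1, 3 and 6 h (3.2%, 9.8% and 14.8% of loci, against 7.19% at 6 h without). Those at 3 h were Nfe2l2, Txnrd1, Srxn1, Gsr and Cat, and at 6 h Gclm joined them. At 24 h the block gave 5 higher in WT (Nqo1, Gclc, Txnrd1, Slc7a11 and Prdx1, with 18.2% of loci, and 12.2% without) and 2 lower (Gsr and Cat, with 26.8%, and 14.8% without). For Prdx1 this difference was 1.02 ± 0.26 (limma, adjusted p = 0.00162) and for Gsr -0.55 ± 0.17 (limma, adjusted p = 0.00751).

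The controls also changed with time, without IL-4. In WT controls Gclm stood at 139, 127, 171 and 230.0 FPKM at 24 h against 25.5, 25.4, 39.9 and 44.96 FPKM at 0 h, which is 4.30 to 5.47 times within a number. Cat was 2.99 to 4.28 times as high, Srxn1 2.86 to 3.69 times and Slc7a11 2.73 to 6.41 times. All 10 genes were higher at 24 h than at 0 h in all 4 numbers without overlap of the groups. For Nfe2l2 the ratio was only 1.09 to 1.32. The share of all loci with this order was not counted. Without the block 5 rose, namely Gclm, Srxn1, Slc7a11, Gsr and Cat (limma, adjusted p from 0.0252 for Slc7a11 to 0.0486 for Cat), against 5.67% of loci that rose, and with it all 10 did, against 13.8%. Without any one of the 4 WT replicates 0 were called in the fit without the block, in which 7.19% to 10.6% of loci were. At 6 h the controls had begun to move: 6 of the 10 rose with the block (Gclm, Gclc, Txnrd1, Srxn1, Gsr and Cat, against 2.36% of loci) and none without it.

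In Stat6-/- controls 9 genes, all but Nfe2l2, were also higher at 24 h than at 0 h in both numbers. The share of all loci with that order was not counted either. Gclm went from 78.0 to 300.4 FPKM in replicate 1 and from 16.2 to 42.9 FPKM in replicate 2. Srxn1 went from 84.8 to 265 FPKM but only from 29.6 to 37.5 FPKM, and Prdx1 from 557 to 1559 FPKM but only from 216 to 232 FPKM. The rise of these was thus steeper in replicate 1. No gene was called without the block (0.153% of loci rose) and 9 were with it (6.02%). The 24 h against 0 h difference did not differ between the genotypes for any of the 10 in either fit of limma (0.0359% and 0.807% of loci), which with 2 Stat6-/- numbers leaves wide intervals.

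**Figure D4:**
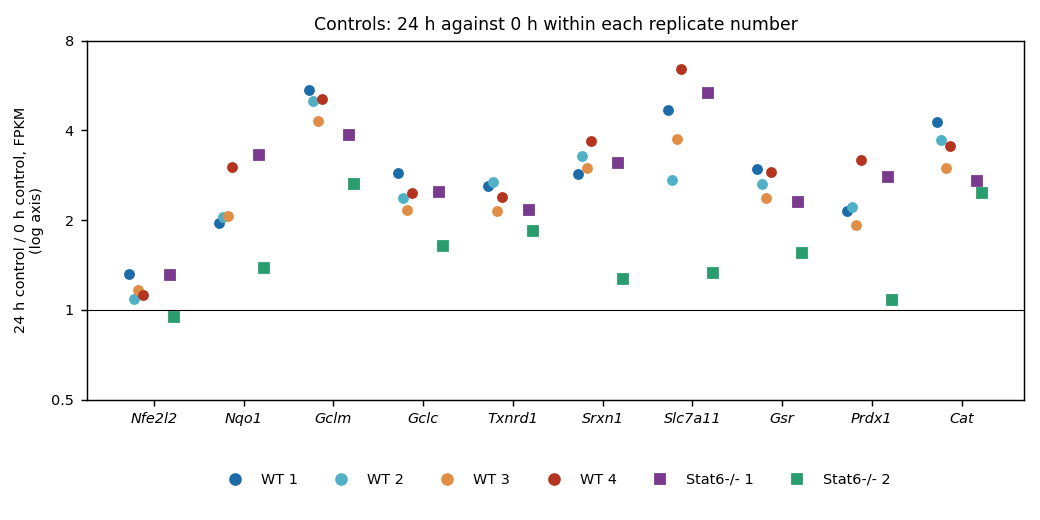
Ratio of the 24 h to the 0 h control in FPKM (log axis) within each replicate number, circles for WT 1 to 4 and squares for Stat6-/- 1 and 2. All WT ratios are above 1, the highest being 6.41 for Slc7a11, and the one value below 1 is Nfe2l2 in Stat6-/- replicate 2 at 0.946.

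Between the genotypes, pooled over the 5 control times, only Nfe2l2 was called, at 0.18 ± 0.057 lower in Stat6-/- (limma, adjusted p = 0.0247), while 13.3% of loci were lower. This fit treats the 5 control libraries of a replicate number as independent, although same-numbered libraries deviated together, so only 2 Stat6-/- numbers stand against 4 in WT and this p and those that follow are too small. The call was also lost without WT replicate 3 (-0.14, limma, adjusted p = 0.167) and without WT replicate 4 (-0.16, limma, adjusted p = 0.11). The other 9 differences, between -0.49 for Nqo1 and 0.11 for Prdx1, are means of replicates on opposite sides of the WT range and describe neither. Without Stat6-/- replicate 1 all 10 genes were lower in Stat6-/-, for example Gclm at -1.35. Without Stat6-/- replicate 2, 9 were higher, Gclm at 1.39, and Nfe2l2 was at -0.04. In each of these fits the Stat6-/- groups hold 1 sample, assumed to vary like the WT groups, so only the differences are given.

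A wider list of 86 redox genes in 8 roles, none of them among the 10, was read beside them, and 77 of it were tested. In WT, 1 rose and 6 fell at 1 h, 5 rose and 9 fell at 3 h, 15 rose and 11 fell at 6 h, and 6 rose and 20 fell at 24 h without the block. Over all loci 5.67%, 16.4%, 22% and 23.4% rose and 3.72%, 12.5%, 19.2% and 31.6% fell at 1, 3, 6 and 24 h. At 24 h the list thus held smaller shares in both directions, 7.79% that rose and 26.0% that fell. With the block, 31 of the 77 fell at 6 h (40.3%), against 27.3% of loci, and 16 rose (20.8%). Of all loci 55.2% were called there in either direction. None was called in Stat6-/- cells in either fit.

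Among regulators, Bach1, the repressor that competes with NRF2, rose as Nfe2l2 fell. It was at 64.4 ± 3.19 FPKM after 1 h of IL-4 and at 26.5 ± 1.89 FPKM in controls (SD, n = 4 each), a change of 1.25 ± 0.069 (limma, adjusted p = 2.18e-17), and the groups did not overlap. It was still higher at 3 h (43.5 ± 2.81 against 24.5 ± 1.26 FPKM) and lower than controls at 24 h (20.2 ± 0.654 against 31.0 ± 2.61 FPKM, limma, adjusted p = 2.36e-08). In Stat6-/- cells its changes lay between -0.12 and 0.08. Keap1 was at 20.0 ± 1.31 FPKM against 22.3 ± 0.907 FPKM at 1 h and was not called there (limma, adjusted p = 0.343) or at 3 and 6 h. At 24 h it fell, to 16.2 ± 0.468 FPKM (n = 3) against 19.1 ± 0.616 FPKM without overlap (-0.22 ± 0.090, limma, adjusted p = 0.0362).

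Among the detoxifying enzymes, 4 of 13 fell at 3 h and 4 at 6 h, against 12.5% and 19.2% of all loci, and none rose at those times. With the block the number that fell was 6 and then 10, against 19.5% and 27.3% of loci. Heme oxygenase 1 (Hmox1) fell from 245 ± 71.7 to 82.2 ± 15.4 FPKM at 3 h (-1.54 ± 0.57, limma, adjusted p = 0.0372). At 24 h it was at 1066 ± 262 FPKM with IL-4 (n = 3) and 639 ± 145 FPKM without, with overlapping groups. The aldo-keto reductase gene Akr1b8 fell from 92.8 ± 25.4 to 32.3 ± 5.54 FPKM at 6 h (-1.47 ± 0.44, limma, adjusted p = 0.00607).

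Further genes were named one by one for the size of their change and do not speak for their roles. Glrx, glutaredoxin, rose from 172 ± 28.7 to 461 ± 13.4 FPKM at 6 h (1.43 ± 0.26, limma, adjusted p = 2.71e-05). Ggt5, a gamma-glutamyltransferase that cleaves glutathione conjugates, rose from 1.33 ± 0.490 to 5.38 ± 0.944 FPKM at 6 h (1.46 ± 0.18, limma, adjusted p = 1.90e-08). At 24 h Ggt5 was lower with IL-4, at 1.31 ± 0.281 (n = 3) against 2.65 ± 0.389 FPKM without overlap (-0.66 ± 0.20, limma, adjusted p = 0.00487). Glrx at 24 h was at 110.3 ± 2.32 against 136 ± 19.0 FPKM, with overlap (limma, adjusted p = 0.395, and 0.0274 with the block). At 24 h the glutathione transferase Gstm5 and the extracellular peroxidase Gpx3 fell by 1.34 and 1.11 (limma, adjusted p = 9.04e-10 and 0.000983). Sesn1, a sestrin, fell by 1.22 (limma, adjusted p = 8.96e-06).

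Subunits of the NADPH oxidase, the enzyme that makes superoxide, fell in 4 of 6 cases at 24 h without the block, against 31.6% of all loci. Its catalytic subunit Cybb was at 101 ± 6.73 FPKM with IL-4 (n = 3) and at 285 ± 12.5 FPKM in controls (-1.49 ± 0.11, limma, adjusted p = 2.10e-14). Of the 6 NADPH-supplying enzymes, 0 were called at 6 h without the block and 4 fell with it, against 27.3% of loci. Of the 12 thioredoxin and peroxiredoxin genes outside the 10, 2 rose and 4 fell at 24 h without the block, near the 23.4% and 31.6% of all loci.

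**Figure D5:**
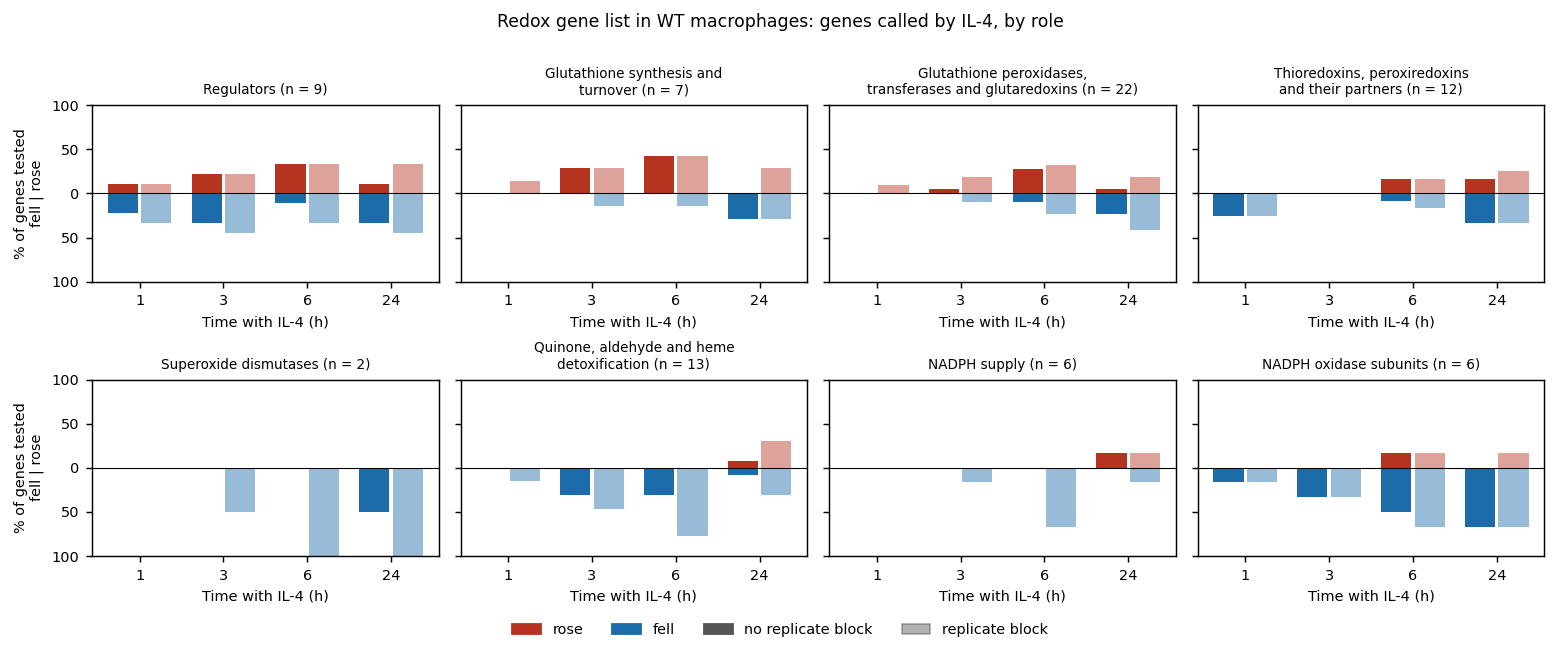
Percentage of the tested genes of each role in the wider redox list that rose (red, upward) or fell (blue, downward) with IL-4 in WT at 1, 3, 6 and 24 h. Dark bars are the fit without and pale bars the fit with the replicate block, and 10 of 13 detoxifying genes fell at 6 h with the block.

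The genes whose group means followed each of the 10 most closely over the 18 groups are given as a description. Pgd, 6-phosphogluconate dehydrogenase of the pentose phosphate pathway, was nearest to Gclm, Txnrd1 and Srxn1 (Pearson r of 0.97, 0.97 and 0.98). The heme transporter gene Slc48a1 was nearest to Gclc (0.97) and among the nearest 3 of Txnrd1, Srxn1 and Slc7a11. Cat was nearest to Panx1 and Gsta3 (0.98 each), Gsr to Akr1b8 (0.96), Prdx1 to Ugt1a6a (0.98), Slc7a11 to Ppap2b (0.98) and Nqo1 to Rnf128 (0.97). Nfe2l2 stood with another set, Mdm2 (0.94), Pdgfb (0.92) and Kcnj2 (0.92). Group means share libraries, and the Stat6-/- means average replicates far apart, so no p is given.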

How the data were processed

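Per the labels and the study's methods, polyadenylated RNA from 1 µg of total RNA was sequenced, and the authors mapped reads to mm10 with TopHat2 2.0.7 and deposited FPKM values from Cufflinks 2.0.2 (versions from the submitters' processing notes). FPKM values are scaled within a sample, so abundant genes shift all others, and hold no counts. Estimates of 0 up to rounding (4316 values) were set to 0. Loci reaching 1 FPKM in any sample were tested as log2(FPKM + 1) in limma 3.58.1 (R 4.3.3, trended eBayes, 18 group means over 53 samples, 35 residual degrees of freedom, two-sided, Benjamini-Hochberg within each comparison), and called at an adjusted p under 0.05. The study's own test was an ANOVA with Tukey's adjustment, run here as an alternative. The scripts were tested on simulated data.

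Same-numbered samples were treated as pairs, since the study describes individual animals. Deviations of same-numbered IL-4 and control samples from their group means correlated at 0.791 to 0.900 in Stat6-/- (1 value for each of 4 times, since with 2 samples a group both numbers give the same r) and 0.0265 to 0.561 in WT (13 of 15 over 0.1). The block adds replicate number within genotype (31 residual degrees of freedom), so comparisons between genotypes of the controls have no blocked value. P-values measure the spread between these samples. Without the block that spread is estimated over all 18 groups, so p-values of WT comparisons also carry the distance between the Stat6-/- replicates. The genes, lists and comparisons were chosen with earlier results of these data known. Wider-list genes were named where called in a WT comparison with an absolute log2 change of at least 1 and no overlap, at most 4 a role, Keap1 and the genes named for the Stat6-/- replicates being exceptions chosen after their values were seen.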

Additional observations from a re-analysis of the deposited data

Results flagged for a closer look

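In WT cells after 6 h of IL-4, replicate 4 lay far above the other 3 samples for 7 of the 10 genes, by Dixon's test of the gap at the ends of a group of 4. It was at 176 FPKM for Cat (others 86.5 to 101), 16.6 for Gclc (9.89 to 10.2), 44.9 for Gclm (18.1 to 20.0), 15.6 for Gsr (9.65 to 10.1), 241 for Prdx1 (172 to 178), 54.3 for Srxn1 (27.3 to 30.8) and 62.5 for Txnrd1 (31.9 to 34.0). Slc7a11 in the 1 h WT control of replicate 4 was at 0.896 FPKM (others 0.403 to 0.486). Chance would flag about 1 in 20 groups, or 4 of the 80 tested, were they independent. Of the 8 found, 7 were in the same library. Genes read in the same library are not independent, so the 8 cannot be weighed against the 4.

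The IL-4 response of Nfe2l2 differed between WT and Stat6-/- cells, by -0.95 at 1 h and -0.9995 at 3 h on the log2 scale, and in WT it differed between 3 h and 6 h by 0.75, each by the test of the difference itself.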

How the results depend on the processing

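The number of the 10 genes called depended mainly on how the spread between replicates entered the fit. With the replicate block, for paired samples, it went from 1 to 7 at 3 h, 2 to 8 at 6 h and 1 to 8 at 24 h of IL-4 in WT. Of all loci 28.9%, 41.2% and 55% were called there without the block and 41.1%, 55.2% and 66.2% with it. The difference between genotypes went from 1 to 5 at 3 h, 0 to 6 at 6 h and 0 to 7 at 24 h. The shares of loci went from 11.2% to 21.4%, 16.5% to 30.2% and 27% to 45%. The 24 h against 0 h controls went from 5 to 10 in WT (17.2% to 37.1% of loci) and 0 to 9 in Stat6-/- (0.718% to 16.8%). The change of response went from 0 to 3 (1 h to 3 h), 1 to 4 (3 h to 6 h) and 0 to 8 (6 h to 24 h). Of loci, 11.1%, 3.31% and 27.8% were called there without the block and 22.2%, 11.8% and 44.1% with it. With only the samples compared the counts were 6, 6 and 6 at 3, 6 and 24 h of IL-4, 9 for the WT controls and 5 for 6 h to 24 h. Of all loci 39.6%, 48.7%, 62.6%, 17.7% and 39.9% were called in these comparisons. With WT samples only, chosen after seeing the data, the counts were 4, 7 and 6, and 10 for the WT controls. The shares of loci were then 37%, 50.5%, 62.5% and 31.3%. In both settings the count at 24 h of IL-4 was near the share of all loci. Tukey's adjustment left 0 at 6 h, at 24 h and for the WT controls, where 25.4%, 33.2% and 7.59% of loci were called. Without a filter on low values 1 was left at 6 h (25.2% of loci) and 1 for the WT controls (9.39%). A pseudocount of 0.1 left 0 at 24 h (55.7% of loci). Leaving out each WT replicate gave 0 at 6 h, at 24 h and for the WT controls. The shares of loci were then 31.1% to 33.5%, 41.5% to 50.2% and 7.19% to 10.6%.

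Between genotypes the controls gave 1 call without WT replicate 1 or 2 and 0 without WT replicate 3 or 4. The shares of loci called were 18.2%, 18.7%, 13.6% and 17%. Leaving out a Stat6-/- replicate leaves 1 sample in each Stat6-/- group, so for these controls only the differences are given. Without replicate 1 the difference turned for Gclm (-1.35), Gclc (-0.80), Slc7a11 (-0.47) and Prdx1 (-0.83) and grew for Nqo1 (-1.86), Txnrd1 (-1.01), Srxn1 (-1.10), Gsr (-0.92) and Cat (-1.30). Without replicate 2 it turned for Nqo1 (0.88), Txnrd1 (0.84), Srxn1 (1.01), Gsr (0.78) and Cat (1.03) and grew for Gclm (1.39), Gclc (0.89), Slc7a11 (0.65) and Prdx1 (1.05). The 24 h genotype difference in response gave 0 to 2, and the Stat6-/- controls at 24 h against 0 h 0 to 3. The cause was not tested. Quantile normalization and upper-quartile scaling changed none of the calls of the 10 genes. Depth is known only relative to the median sample, so no counting error can be given.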
